A study of Mus musculus with 6 samples.

Results

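The 7 genes described here encode the carnitine acyltransferases and the cell's carnitine importer: Cpt1a, Cpt1b, Cpt1c, Cpt2, Crat, Crot and Slc22a5. They were taken from the gene table by name, and all 7 were found among its 13962 rows, all 7 passing the filter on low counts. The table holds poly(A) RNA-seq counts from mouse beige adipocytes, fat cells of white adipose tissue that can take on heat-producing features. Preadipocytes came from inguinal white fat of the C57BL/6 background, were immortalized with the Large T antigen, and carried the genotype TLE3F/F CreERT2, that is, floxed alleles of the transcriptional co-repressor gene Tle3 and a tamoxifen-activated Cre whose driver the labels do not name. All cells were kept in insulin (20 nM) and T3 (1 nM) and induced with isobutylmethylxanthine (0.5 mM), dexamethasone (0.5 uM), indomethacin (0.125 mM) and rosiglitazone (1 uM), an agonist of PPARγ that stayed in the medium afterwards. On day 4 the control group (n = 3) received ethanol and the group labelled TLE3 KO (n = 3) received 4-hydroxytamoxifen (500 nM, called tamoxifen in the treatment protocol), each for 24 hours, and RNA was taken on day 10. Every group carried the floxed alleles and the Cre, so effects of the compound, of Cre activity and of the deletion cannot be told apart.

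Long-chain fatty acids cannot cross the inner mitochondrial membrane as acyl-CoA, so their entry for oxidation goes through carnitine. SLC22A5 (OCTN2) brings carnitine into the cell, CPT1 on the outer membrane makes acylcarnitine, the carrier SLC25A20 exchanges it across the inner membrane, and CPT2 on the inside restores acyl-CoA. CPT1 is the regulated step and is blocked by malonyl-CoA. Its isoforms differ by tissue: CPT1A is the liver type, CPT1B the muscle type that also predominates in brown fat and is the more sensitive to malonyl-CoA, and CPT1C is a brain isoform of the endoplasmic reticulum with little activity. CRAT handles acetyl and other short acyl groups, and CROT handles medium-chain products of the peroxisome.

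Upstream sequence is shown for the 2 genes whose change is described below as opposite in direction and for which a window was at hand: Cpt1a, which was lower, and Cpt2, which was higher in the libraries labelled knockout. RefSeq windows of GRCm38.p6, another build than the authors' mm9, matched 5 of the 7 genes, and not Cpt1b or Crat. Each line gives the 250 bases before the annotated start on the gene's own strand, with AGGTCA (the half-site of many nuclear receptors) and GGGCGG (the GC box), searched on both strands, in capitals. The first lies at chr19:3323051-3323300 (+ strand) and the second at chr4:107923590-107923839 (- strand).

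Cpt1a: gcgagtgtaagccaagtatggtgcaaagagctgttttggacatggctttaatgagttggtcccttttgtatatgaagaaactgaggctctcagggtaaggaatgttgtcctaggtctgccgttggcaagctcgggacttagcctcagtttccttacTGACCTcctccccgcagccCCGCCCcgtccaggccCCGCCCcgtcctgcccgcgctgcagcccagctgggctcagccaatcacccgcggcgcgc

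Cpt2: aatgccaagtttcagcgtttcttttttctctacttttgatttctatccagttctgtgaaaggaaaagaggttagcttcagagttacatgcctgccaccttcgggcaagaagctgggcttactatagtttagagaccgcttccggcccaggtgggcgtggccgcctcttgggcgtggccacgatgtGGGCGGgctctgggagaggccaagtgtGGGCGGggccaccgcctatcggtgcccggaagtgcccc

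The Cpt1a window held 1 AGGTCA match, on the opposite strand and starting at position −94 from the annotated start, and 2 GC boxes. The Cpt2 window held 2 GC boxes and 0 half-sites. Across all 32851 windows of this length, 14.0% held the half-site and 32.7% the GC box, so both are common. The Cpt1c window also held 1 half-site, at position −146, and those of Crot and Slc22a5 held 0. A match describes letters in the window and says nothing about binding.

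Total counts ran from 14606228 to 19294632 per library. General adipocyte markers were high in all 6 libraries, with Fabp4 at 4514 ± 657 CPM (counts scaled to library size, SD, n = 3) for controls and 5387 ± 659 for the libraries labelled knockout (edgeR adjusted p 0.165). The targeted gene did not fall: Tle3 counts over the whole gene were higher in each library labelled knockout (286.9 to 294.2 CPM) than in each control (151.3 to 152.1 CPM). Such counts include any exons left in place by the deletion and cannot check the labels, so directions below are those of the libraries labelled knockout. In bulk RNA, fewer cells of a type and less RNA per cell cannot be told apart.

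Of the 7 genes, Cpt1b and Cpt2 rose and Cpt1a fell in the libraries labelled knockout, and 4 did not pass the test (edgeR quasi-likelihood test, Benjamini-Hochberg adjusted p under 0.05 over all tested genes). Over all 13192 tested genes 12.3% were called, 6.91% as higher and 5.44% as lower. The 2 groups did not overlap in any library for 6 of the 7 genes, 5 higher and 1 lower, against 31.8% of all tested genes. The median log2 fold change of the 7 was 0.16, and that of all tested genes was −0.0025. The number that rose was 1 without knockout 2 or without knockout 3 and 4 without knockout 1.

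**Figure D1:**
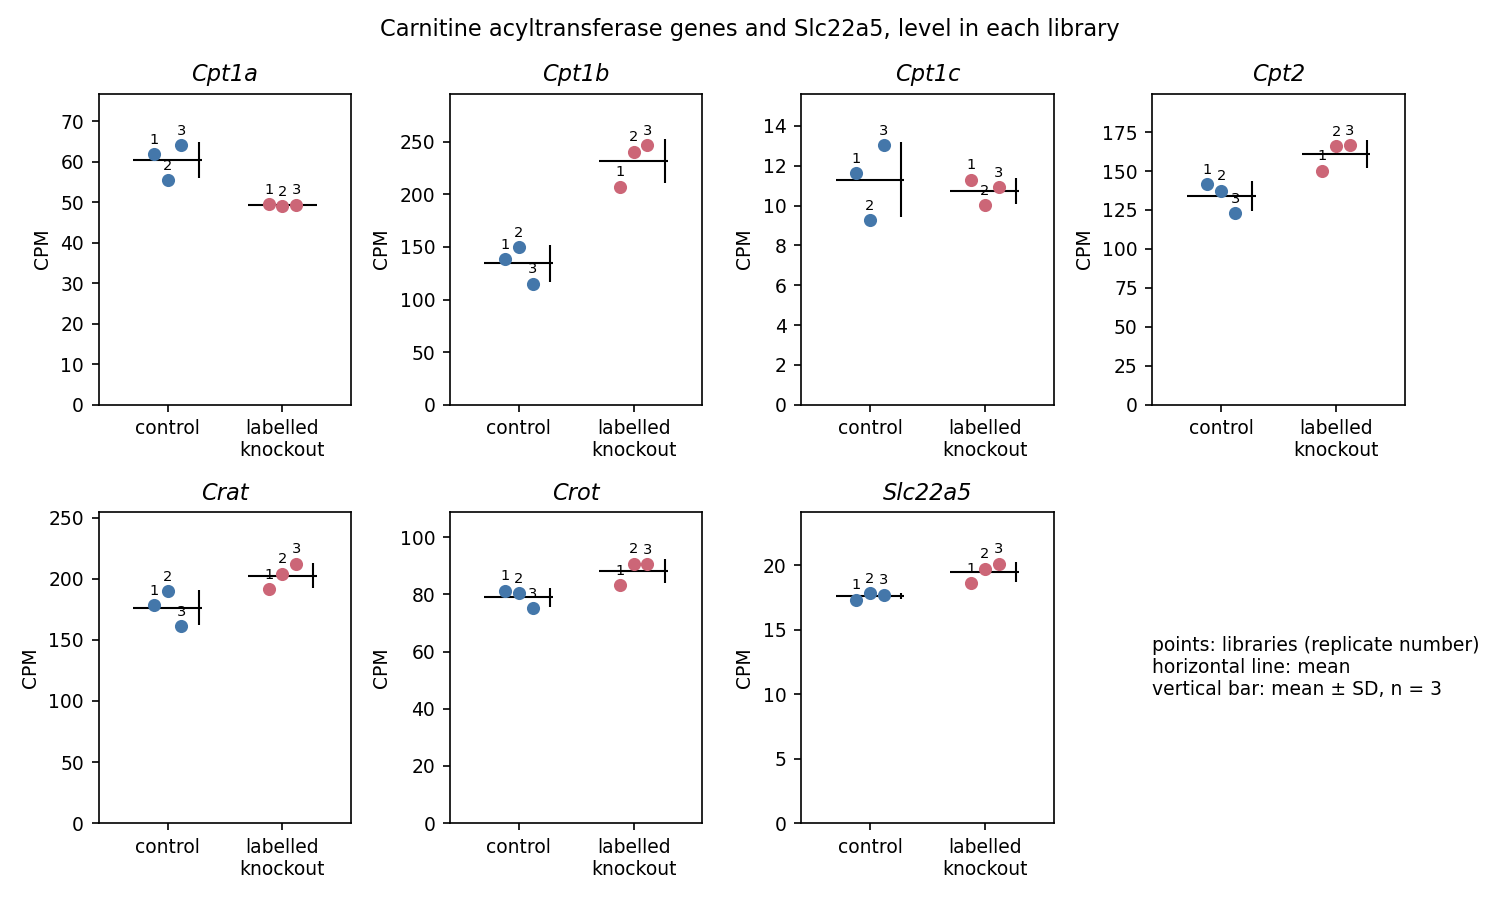
Level of each of the 7 genes in CPM (y axis, from 0) in the 3 controls (blue) and the 3 libraries labelled knockout (red); points are libraries with their replicate number, the horizontal line is the mean and the vertical bar the mean ± SD. Cpt1b lies between 115.1 and 149.5 CPM in controls and between 207.3 and 246.6 CPM in the libraries labelled knockout, Cpt1a moves the other way, and Cpt1c overlaps.

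Slc22a5, the carnitine importer, was a low-level transcript in every library. It stood at 17.31, 17.80 and 17.71 CPM in controls 1 to 3 and at 18.58, 19.70 and 20.09 CPM in knockout 1 to 3. Each library labelled knockout was above each control, but the step was small, with a log2 fold change of 0.14 (95% interval −0.0089 to 0.30, edgeR adjusted p 0.205).

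Cpt1a, the liver-type isoform, was at 61.92, 55.43 and 64.06 CPM in controls 1 to 3 and at 49.57, 49.09 and 49.35 CPM in knockout 1 to 3. All 3 libraries labelled knockout were lower than the lowest control, control 2, and they lay closer to each other than the controls did. Control libraries averaged 60.5 ± 4.49 CPM and the others 49.3 ± 0.243 CPM (SD, n = 3 each), and Cpt1a fell by 0.30 on the log2 scale (SE 0.057, 95% interval −0.42 to −0.17, edgeR adjusted p 0.00802).

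Cpt1b, the muscle-type isoform, was at 138.3, 149.5 and 115.1 CPM in controls 1 to 3. In knockout 1 to 3 it was at 207.3, 240.7 and 246.6 CPM. The groups were far apart, and control 3 and knockout 1 were the lowest of their groups. Its mean rose 1.73-fold, from 134.3 ± 17.6 to 231.5 ± 21.2 CPM (log2 0.79, SE 0.09, 95% interval 0.59 to 0.99, edgeR adjusted p 0.000506).

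Cpt1c, the brain isoform, was the lowest of the 7 in CPM. Controls 1 to 3 gave 11.62, 9.27 and 13.02 CPM, and knockout 1 to 3 gave 11.29, 10.02 and 10.92 CPM. The groups overlapped, with both the highest and the lowest value among the controls. Its log2 fold change was −0.08 with an interval from −0.35 to 0.19 (edgeR adjusted p 0.71), and knockout 2 held 145 counts and control 2 held 137.

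The balance of Cpt1a to Cpt1b shifted towards Cpt1b. The log2 ratio of Cpt1a to Cpt1b counts within a library, which library scaling does not touch, was −1.16, −1.43 and −0.84 for controls 1 to 3, against −2.06, −2.29 and −2.32 for knockout 1 to 3. The groups did not overlap, and control 3 stood nearest to an even ratio. The means were −1.15 ± 0.294 and −2.23 ± 0.141 (SD, n = 3 per group), a difference of −1.08 on the log2 scale. By an exact two-sided permutation test p was 0.1, and no smaller value is possible with 3 libraries in each group.

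In counts, control libraries held 2.24 ± 0.451 Cpt1b reads for each Cpt1a read and the libraries labelled knockout 4.69 ± 0.445 (exact permutation p = 0.1, n = 3 per group). Cpt1b took 69.1% of the pair's counts in control 1 (95% Wilson interval 67.5% to 70.6%), 73.0% in control 2 (71.3% to 74.5%) and 64.2% in control 3 (62.6% to 65.8%). Its share was 80.7% in knockout 1 (79.5% to 81.9%), 83.1% in knockout 2 (81.9% to 84.2%) and 83.3% in knockout 3 (82.2% to 84.4%). These intervals cover counting error only. The 3 control shares lay apart from each other beyond counting error, and those of knockout 2 and knockout 3 did not.

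**Figure D2:**
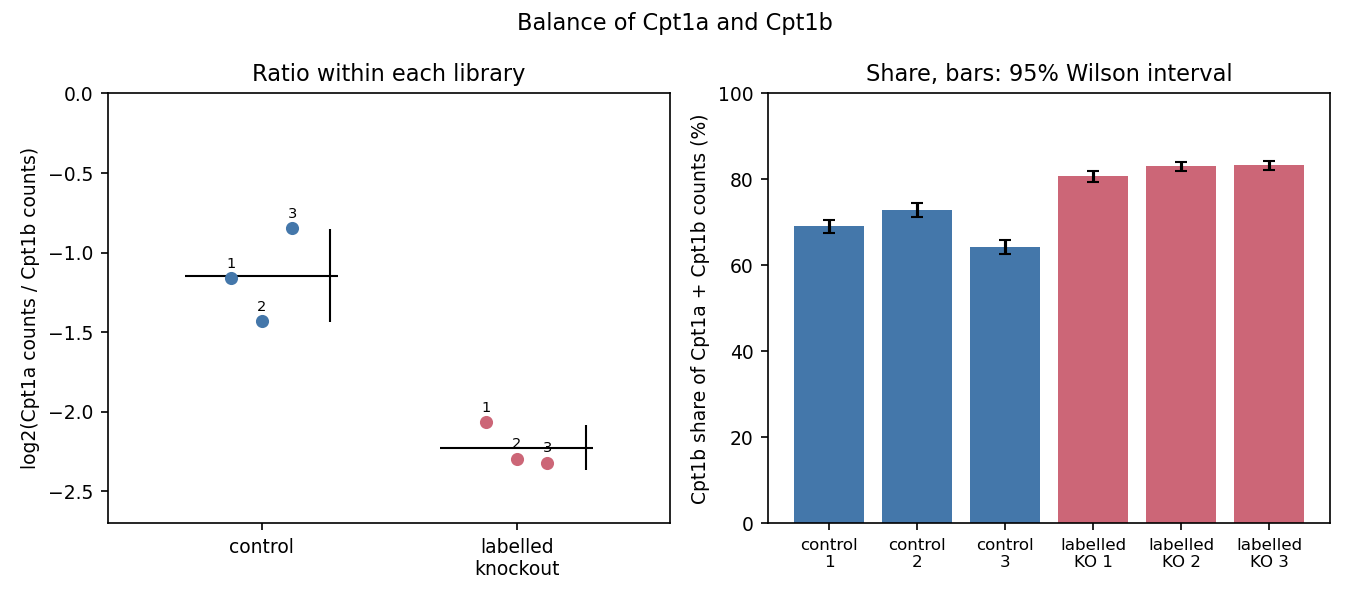
Left, log2 ratio of Cpt1a to Cpt1b counts in each library (y axis), with mean line and SD bar for each group; right, Cpt1b share of the pair's counts in percent (y axis from 0 to 100) with 95% Wilson intervals. On the left the controls span −1.43 to −0.84, above the span of the others (−2.32 to −2.06), and the share goes from 64.2% to 73.0% in controls and from 80.7% to 83.3% in the others.

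Levels of different genes can be compared only per length, and the length mattered here. The exonic length in GENCODE M21 is 7642 bases for Cpt1a and 3372 for Cpt1b, whereas the deposited counts and whole-number FPKM of Cpt1a imply a length of 4285 to 4339 bases in the authors' annotation. With M21 lengths the libraries labelled knockout held 10.6 ± 1.01 Cpt1b for each Cpt1a transcript, per length, and the controls 5.08 ± 1.02. With the implied lengths these ratios were 6.01 ± 0.57 and 2.87 ± 0.577. The level of the balance thus depends on the length used. In the shift between groups the length cancels by construction, and counts made with another annotation were not analysed here.

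Summed per exonic length, Cpt1a and Cpt1b together were at 49.13, 51.59 and 42.50 CPM per kb in controls 1 to 3 and at 67.97, 77.79 and 79.58 CPM per kb in knockout 1 to 3. All 3 libraries labelled knockout were above the controls, and the summed level was 1.57-fold higher (log2 difference 0.66, exact permutation p = 0.1, n = 3 per group). With the implied lengths the difference was 0.57.

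Cpt1b lies next to Chkb, which encodes choline kinase beta, and the counts of these neighbours were closely tied. Chkb was at 188.3, 196.8 and 163.2 CPM in controls 1 to 3 and at 258.2, 293.8 and 301.1 CPM in knockout 1 to 3, in the same order of libraries as Cpt1b. It rose 1.56-fold (log2 0.64, SE 0.074, edgeR adjusted p 0.000543). GENCODE M21 gives Chkb 3061 exonic bases, but its deposited counts and FPKM imply 5768 to 5814 bases. M21 also lists Gm44502, a model on the same strand that shares 1552 exonic bases with Chkb and 2744 with Cpt1b, and Chkb joined with it has 5805 exonic bases. Of 2970 genes with an FPKM of at least 20 in every library, 57.0% had an implied length within 10% of the M21 length. An implied length over 1.5 times the M21 length was found for 9 (0.3%).

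The implied length of Cpt1b, 3355 to 3380 bases, held its own 3372 exonic bases and no more. How reads in exons shared by the 2 genes were assigned is not given in the sources used here. Chkb exceeded Cpt1b by 49.96, 47.24 and 48.14 CPM in controls 1 to 3 and by 50.88, 53.17 and 54.58 CPM in knockout 1 to 3, while Chkb itself was 101.6 CPM higher between group means. Of the 2 tested choline and related enzyme genes, the other, Chka, was at 54.5 ± 2.76 and 52.6 ± 0.647 CPM (edgeR adjusted p 0.559). The subtraction was chosen after the values were seen. Whether reads were counted for both genes, and whether Cpt1b reads came from its own transcript or from one joined to Chkb, was not tested.

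**Figure D3:**
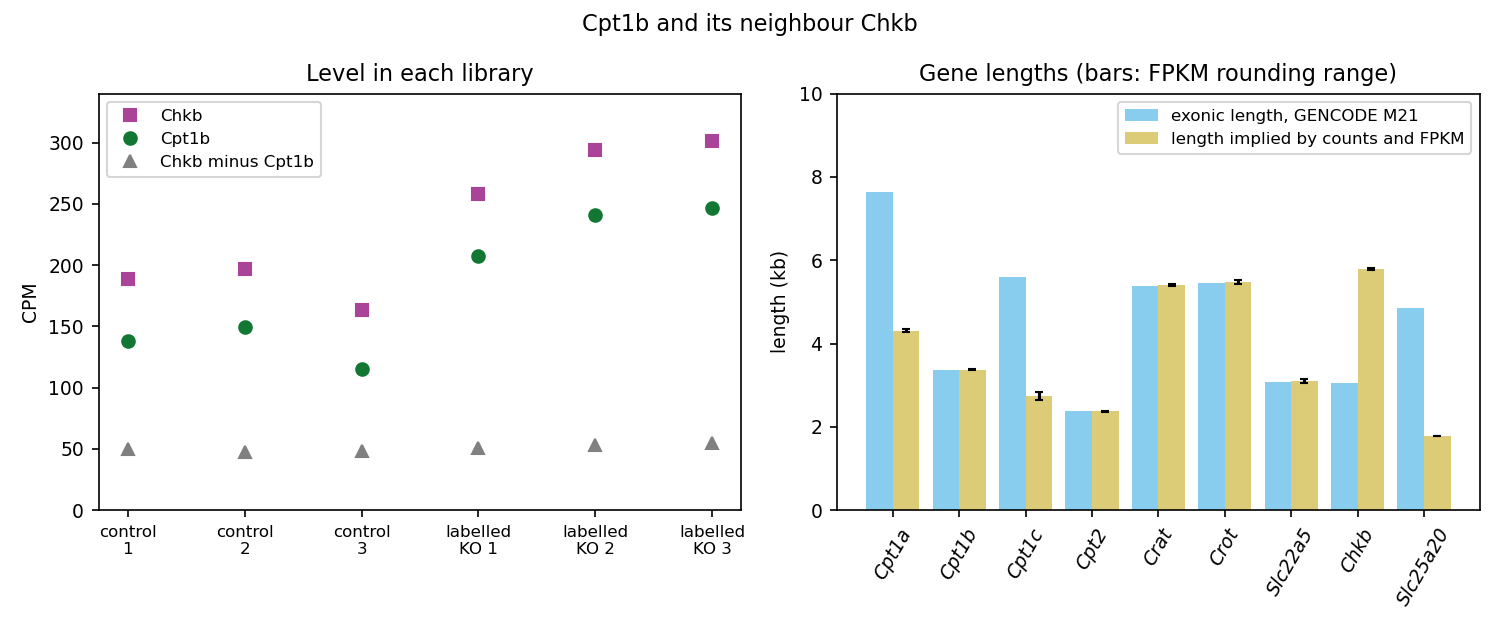
Left, CPM of Chkb (squares), Cpt1b (circles) and their difference (triangles) in each library; right, exonic length in GENCODE M21 (blue) and length implied by the deposited counts and FPKM (yellow, bars give the range that FPKM rounding allows), in kb. The difference lies between 47.24 and 49.96 CPM in controls and between 50.88 and 54.58 CPM in the libraries labelled knockout. The groups do not overlap in it, and both genes move by more. Chkb is the 1 gene shown whose implied length is well above its M21 length, whereas Cpt1a, Cpt1c and Slc25a20 are below theirs.

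Slc25a20, the carnitine-acylcarnitine carrier between CPT1 and CPT2, averaged 92.2 ± 9.27 CPM in controls. In the libraries labelled knockout it averaged 118 ± 8.44 CPM, a 1.28-fold rise (SD, n = 3 per group; edgeR adjusted p 0.0107). Its call was lost without knockout 3 (adjusted p 0.06).

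Cpt2, the enzyme of the inner membrane, was at 141.4, 137.3 and 122.9 CPM in controls 1 to 3 and at 150.3, 165.8 and 166.5 CPM in knockout 1 to 3. The groups did not overlap, with control 3 lowest and knockout 1 the nearest to the controls. Cpt2 rose 1.2-fold (log2 0.27, SE 0.06, 95% interval 0.13 to 0.40, edgeR adjusted p 0.0164). Leaving out knockout 2 ended the call (adjusted p 0.0638), as did leaving out knockout 3 (adjusted p 0.0881). There was about 1 Cpt1b count for each Cpt2 count in controls (1.00 ± 0.079) and 1.44 ± 0.0522 in the libraries labelled knockout (exact permutation p = 0.1, n = 3 per group).

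Crat, which buffers acetyl-CoA as acetylcarnitine, was at 178.2, 189.5 and 161.2 CPM in controls 1 to 3 and at 191.3, 203.9 and 212.1 CPM in knockout 1 to 3. The groups did not overlap, though knockout 1 exceeded control 2 by little. The log2 fold change of 0.20 (95% interval 0.07 to 0.33) missed the threshold, with an edgeR adjusted p of 0.0537. It passed in 5 of 12 alternatives, among them DESeq2 (adjusted p 0.0394), library size alone (0.0484) and fits without control 2 (0.016) or knockout 1 (0.047); over all 12 alternatives its adjusted p ran from 0.016 to 0.22.

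Crot, the peroxisomal octanoyltransferase, was at 81.32, 80.41 and 75.09 CPM in controls 1 to 3 and at 83.12, 90.64 and 90.47 CPM in knockout 1 to 3. Again control 3 and knockout 1 were the lowest of their groups, and the groups were separate by a small margin. Its log2 fold change was 0.16 (95% interval 0.04 to 0.27, edgeR adjusted p 0.0709), and it passed without knockout 1 (0.0476). For each Crot count there were 2.23 ± 0.11 Crat counts in controls and 2.30 ± 0.0474 in the libraries labelled knockout (exact permutation p = 0.4, n = 3 per group), a difference of 0.0675 that was within the spread of the controls.

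Per exonic length, the order in controls was Cpt2 (56.0 ± 4.07 CPM per kb), Cpt1b (39.8 ± 5.21), Crat (32.7 ± 2.64), Crot (14.5 ± 0.617), Cpt1a (7.91 ± 0.588), Slc22a5 (5.73 ± 0.0848) and Cpt1c (2.02 ± 0.338). The ranges of Cpt1b and Crat overlapped in controls. In the libraries labelled knockout Cpt1b (68.7 ± 6.27) and Cpt2 (67.3 ± 3.83) came first with overlapping ranges, ahead of Crat (37.6 ± 1.95) and Crot (16.1 ± 0.787), and those of Cpt1a (6.46 ± 0.0318) and Slc22a5 (6.34 ± 0.255) overlapped too. With the implied lengths Cpt1a was at 14.0 ± 1.04 CPM per kb in controls, level with Crot at 14.4 ± 0.614, and at 11.4 ± 0.0563 against 16.1 ± 0.783 in the libraries labelled knockout.

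Within each group, 1 library was the lowest for several of these genes and also for adipocyte markers. Control 3 was lowest for Cpt1b, Cpt2, Crat and Crot and highest for Cpt1a and Cpt1c, and knockout 1 was lowest of its group for Cpt1b, Cpt2, Crat, Crot and Slc22a5. The summed level of 10 general adipocyte markers was 11510 CPM in control 3 against 13336 and 13742 CPM in controls 1 and 2. It was 12976 CPM in knockout 1 against 14887 and 14336 CPM in knockout 2 and knockout 3, so the groups overlapped. Most of that sum came from Fabp4, Lpl and Cd36, at 4514, 3792 and 1859 CPM on average in controls. Of the 10 adipocyte markers, Lipe and Cd36 rose and 0 fell. Of 10 listed preadipocyte and fibroblast markers, 8 were tested. Their summed level ran from 8136 to 9327 CPM in controls, highest in control 3, and from 7988 to 8386 CPM in the others. Most of it came from Col1a1 and Col3a1, at 4246 and 3348 CPM on average in controls. Dlk1 was higher and Pdgfra and Thy1 were lower by the test. Beside the calls of both marker lists, 6.91% of all 13192 tested genes rose and 5.44% fell. The part of these markers in the shifts of the carnitine genes was not tested.

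Since Cpt1b is the muscle-type isoform, muscle markers were also read. Of 13 listed, 3 were tested. The other 10, among them Ckm, Myh1, Myod1 and Myog, had no row under those names in the deposited counts and were not analysed here. Mb, the myoglobin gene, was higher, at 424.2 ± 34.7 CPM against 259.1 ± 41.9 CPM in controls (edgeR adjusted p 0.00173). Acta1 averaged 11.4 ± 0.894 CPM, then 11.2 ± 0.908 CPM (adjusted p 0.876) and Tnnt2 at 1.92 ± 0.298 and 1.48 ± 0.15 CPM (adjusted p 0.276). Their summed level was 227.6 to 307.8 CPM for controls and 397.1 to 466.1 CPM for the others, nearly all of it Mb. The 3 tested macrophage markers summed to 3.66 to 4.75 CPM for controls and 4.74 to 5.39 CPM for the others. The 2 tested endothelial markers, Kdr and Tek, summed to 1.42 to 2.91 and 2.49 to 3.28 CPM. Of either list, 0 were called. Across all 13192 tested genes, 12.3% were called in either direction. The part of the muscle, macrophage and endothelial markers in the Cpt1b rise was not tested.

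The genes that feed the shuttle moved in different directions. For the counts in this and the following lists, 6.91% of all 13192 tested genes rose and 5.44% fell. Of 3 tested genes of carnitine transport and synthesis, 1 rose and 0 fell (median log2 0.26): Aldh9a1, an aldehyde dehydrogenase of carnitine synthesis, at 1.2-fold (edgeR adjusted p 0.0168), lost without knockout 2 or knockout 3; without knockout 1, 2 rose. The related transporter gene Slc22a4 was at 2.74 ± 0.135 and 3.89 ± 0.457 CPM (adjusted p 0.0611). Of 11 tested acyl-CoA synthetase genes, 2 rose and 2 fell (median 0.01). Acsl1, the main long-chain synthetase of adipocytes, rose 1.15-fold (adjusted p 0.035) and Acsf3, a malonyl-CoA synthetase of mitochondria, 1.19-fold (adjusted p 0.0311). Acsl4, which prefers arachidonic acid, fell by 0.25 (adjusted p 0.0419) and Acsl5 by 0.15 (adjusted p 0.0422) on the log2 scale. The call of Acsl5 was also lost with all 6 libraries under DESeq2 (adjusted p 0.166). With edgeR, 0 of these synthetases rose or fell when control 3 or any 1 knockout library was left out. Omitting control 1 left 0 higher and 1 lower, and omitting control 2 left 2 higher and 0 lower.

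Of 9 tested genes that set malonyl-CoA, the inhibitor of CPT1, or belong to the kinase AMPK that acts on its synthesis, 2 rose and 0 fell (median log2 0.07). Acacb, the acetyl-CoA carboxylase of the outer mitochondrial membrane, averaged 150.4 ± 11.6 CPM in controls and rose 1.3-fold to 195.4 ± 16.5 CPM (edgeR adjusted p 0.00601) and stayed called in each of 12 other settings. Prkaa2, a catalytic AMPK subunit gene, rose 1.21-fold (adjusted p 0.0365), a call that needed each of control 1, control 3, knockout 2 and knockout 3. Mlycd, which removes malonyl-CoA, was at 35.6 ± 4.92 and 38.7 ± 2.85 CPM (adjusted p 0.426).

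Downstream, 15 of 21 tested genes of mitochondrial beta-oxidation rose and 0 fell (median log2 0.30). The 4 with the smallest adjusted p were Eci1, an enoyl-CoA isomerase (1.33-fold, edgeR adjusted p 0.00127), the thiolase gene Acaa2 (1.41-fold, 0.0046), the hydroxyacyl-CoA dehydrogenase gene Hadh (1.34-fold, 0.00654) and the thioesterase gene Acot13 (1.26-fold, 0.00669). The number that rose was 9 without control 1, 7 without knockout 2 and 5 without knockout 3. In size, the rise of Cpt2 was near this median, and that of Cpt1b was larger than the change of any of the 21 (largest log2 0.49, Acaa2).

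In the peroxisome, where CROT acts, 4 of 18 tested genes rose and 1 fell (median log2 0.14). Those that rose were Eci2 (1.16-fold, edgeR adjusted p 0.0242), the racemase gene Amacr (1.19-fold, 0.0263), Nudt19 (1.24-fold, 0.0349) and the sterol carrier gene Scp2 (1.22-fold, 0.0434). Abcd2, a peroxisomal transporter of very-long-chain acyl-CoA, fell by 0.27 on the log2 scale (adjusted p 0.0144). The number that rose was 7 when control 2 was omitted, 1 for control 1, 3 for knockout 1, and 0 for control 3, knockout 2 or knockout 3. Amacr was not called by DESeq2 (adjusted p 0.118). Abcd2 was not called without knockout 2 (adjusted p 0.0587) or knockout 3 (adjusted p 0.0696).

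**Figure D4:**
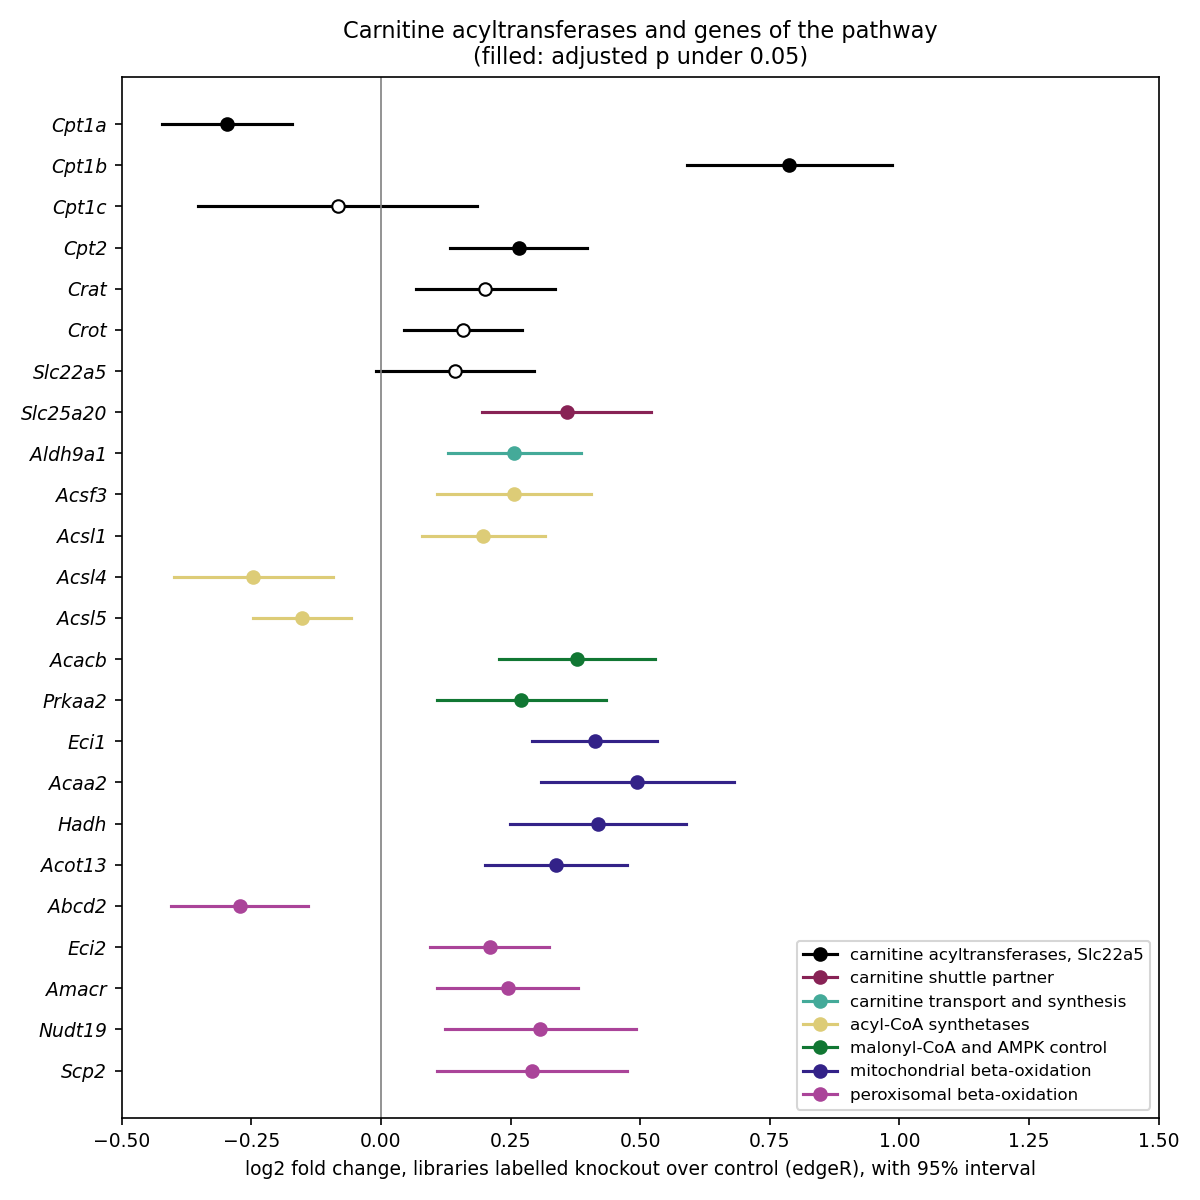
Log2 fold change of the libraries labelled knockout over controls (x axis) with its 95% interval for the 7 genes (black) and the named genes of the pathway, coloured by list; filled points passed an adjusted p of 0.05. Cpt1b at 0.79 and Cpt1a at −0.30 lie at opposite ends. Cpt2 at 0.27 lies below the mitochondrial oxidation genes shown (0.34 to 0.49) and within the range of the peroxisomal genes that rose (0.21 to 0.31).

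Among 10578 genes averaging 5 CPM or more, those whose log2 CPM followed Cpt1b most closely over the 6 libraries were Chkb (Pearson r 0.9993), Chchd3 (0.9990) and Suv420h2 (0.9981). Chchd3 encodes a protein of mitochondrial cristae and Suv420h2 a histone H4 methyltransferase. For Cpt1a they were Col5a2, a fibrillar collagen gene (0.9955), Cdk9, a kinase of transcription elongation (0.9952), and Asxl1, a chromatin regulator gene (0.9948). Col5a2 was lower by the test (log2 −0.25, edgeR adjusted p 0.014), whereas Cdk9 (−0.17, 0.0668) and Asxl1 (−0.07, 0.295) were not called. The implied length of Chkb, 5768 to 5814 bases, was near that of Chkb joined with Gm44502, which shares exonic bases with Cpt1b. Whether reads counted for both genes lie behind the Chkb correlation was not tested. These correlations are descriptions over 6 libraries that include the difference between groups.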

How the data were processed

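The authors deposited read counts per gene as whole numbers in 1 table, per the file headers, with FPKM values beside them that the authors had rounded to whole numbers and that were treated as a score, used only for lengths and 1 check. Per the submitters' processing notes, Novoalign 2.8, Picard and DESeq2 were used with mm9, and their roles, the read counter, the annotation and the strand setting were not given in the sources used here; the kit kept strand, per the labels' protocols. Exons of Crat, Crot, Cpt1c and Chkb overlap models on the opposite strand in GENCODE M21, so the counts of these genes carry that uncertainty. For Chkb the overlap is 320 bases with C730034F03Rik, which is also in the deposited counts. Crot further shares 39 exonic bases with Gm27941, a model on its own strand.

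Counts were fitted over the whole table with edgeR 4.0.16 in R 4.3.3 (expression filter, 13192 genes kept and 770 set aside, TMM scaling, quasi-likelihood test, group alone), with Benjamini-Hochberg adjustment across every tested gene. SE is the size of the log2 fold change over the square root of F. Ratios were tested by exact two-sided permutation in SciPy 1.17.1. Implied length is counts divided by FPKM and by the library's total count in the table, scaled as FPKM is, over the range that rounding allows. The fits were tested on simulated data. Alternatives were RLE scaling, library size alone, no filter, DESeq2 1.42.0, limma-voom 3.58.1, a replicate block and each library left out.

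The 7 genes and the gene lists were chosen with earlier results of these data known. Named genes were all 7, Tle3, Chkb, up to 4 called genes a list by adjusted p (all called genes if 5 or fewer) and the 3 genes most correlated with Cpt1a and with Cpt1b; Slc22a4, Mlycd, Chka and the marker genes were named after their values were seen. Library totals of 14606228 to 19294632 limit the low genes. Nothing says that replicates were separate cultures, so a p-value reflects only how these libraries vary, possibly for technical reasons. No 2 libraries of a group looked like repeats of 1 library (chi-square per degree of freedom 2.97 to 7.81). The 6 hepatocyte markers listed had no row under those names in the deposited counts and were not analysed here.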

Additional observations from a re-analysis of the deposited data

How the results depend on the processing

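Of the 7 genes, Cpt1a, Cpt1b, Cpt1c and Slc22a5 kept their side of the threshold in each of 12 alternatives, with log2 fold changes from −0.35 to −0.25 for Cpt1a and from 0.69 to 0.87 for Cpt1b. The sign for Cpt1c, which was not called, varied (−0.20 to 0.04). Crat passed with library size alone (log2 0.19), DESeq2 (0.20) and the replicate block (0.20, adjusted p 0.046). With 1 library left out in turn, log2 fold changes ran from 0.14 to 0.26 for Crat, from 0.21 to 0.32 for Cpt2 and from 0.13 to 0.20 for Crot, the number of the 7 that rose from 1 to 4, and the balance difference from −1.22 to −0.93. The genes called over the whole table then numbered 621 to 1895 (332 to 1025 that rose, 289 to 870 that fell). Such fits rest on 5 libraries, and the cause of these moves was not tested.

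The labels do not say that replicate numbers pair the samples. Correlations of same-numbered deviations were −0.06, 0.25 and 0.04, and not every library correlated best with its own number. With 3 libraries in each group, these values cannot settle whether the samples were paired. With the replicate block 1809 genes were called, 3 of the 7 rose (Cpt1b at log2 0.79, Cpt2 at 0.27) and 1 fell (Cpt1a at −0.29), and the balance difference was −1.08. Under that block Acsl5 was not called (adjusted p 0.0604). The summed Cpt1a and Cpt1b difference was 0.64 to 0.66 over the scalings, 0.53 with coding length and 0.57 with implied length, which was added after the data were seen. A further 66 tested genes were those of the pathway lists, Chkb, Chka and Tle3. Leaving out 1 library kept their side of the threshold in 311 of 396 values. A call was lost in 76, gained in 9 and reversed in 0. Under the other settings 383 of 396 values kept their side, 6 lost a call, 7 gained a call and 0 reversed. Only genes called by edgeR with all 6 libraries could lose a call, so lost calls are a larger share of the values of those genes. The counts of Cpt1c, 137 to 255 per library, leave its interval wide.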
